A study of Mus musculus with 4 samples.

Results

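The MYC and MAX network is a family of 10 transcription factor genes here (Myc, Mycn, Max, Mxd1, Mxd3, Mxd4, Mxi1, Mnt, Mlx and Mga), described in mouse natural killer (NK) cells treated with DKK2. The members were taken by gene symbol from a deposited table of 37305 rows, in which each of the 10 symbols stood on 1 row. RNA had been measured in splenic NK cells of C57BL/6 mice at postnatal day 56, cultured for 24 hours in mouse IL-15 at 50 ng/ml. The cells then received DKK2 at 200 ng/ml for another 24 hours (2 libraries) or mock treatment for the same time (control, 2 libraries). No genetic change is given for either group, and all 4 cultures had IL-15. DKK2 is a secreted antagonist that occupies LRP5 and LRP6 on the cell surface, and Myc is a textbook target of Wnt signalling in other tissues. The comparison asks how DKK2 altered gene expression in these cells. No source used here states that the libraries of a group came from separate animals or cultures, so p-values measure only the scatter of these libraries, possibly a technical one.

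The proteins of the network carry a basic helix-loop-helix leucine zipper, with which they pair and bind the DNA letters CACGTG, called the E-box. MAX is the shared partner: paired with MYC or MYCN it activates genes of growth, nucleotide synthesis and ribosome assembly. Paired with an MXD protein or MNT it recruits SIN3 corepressors to the same sites, while MGA brings MAX to a Polycomb-type repressor complex, and MLX pairs with the glucose-responsive factors MondoA (gene Mlxip) and ChREBP (gene Mlxipl). In lymphocytes MYC is known for driving growth after cytokine or antigen stimulation, and in cytokine-stimulated NK cells its protein is known to depend on amino acid uptake.

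The E-box stood in the promoter windows of 4 members, which are shown because the network's own dimers bind these letters. A promoter window here runs from 250 bases before to 50 bases after a gene start in RefSeq (build GRCm38.p6), and 9 of the 10 members had one. The letters CACGTG read the same on both strands. They were found in 7.15% of all 32851 windows and in 12.2% of the 7536 tested genes with a window, against 44.4% of the 9 members. Counted from the gene start, the 4 matches began at position -3 in Max, -40 in Mlx, -123 in Mnt and -219 in Mxd4. The windows of Mlx, Mnt and Mxd4 led into a GENCODE transcript of the gene. That of Max did not, so its position is less certain. They are printed with up to 20 bases on each side, on the strand of the gene, with the E-box in capitals. The stretches lie at chr12:76962226-76962271 (minus strand) for Max, chr11:101087230-101087275 (plus strand) for Mlx, chr11:74830781-74830826 (plus strand) for Mnt and chr5:34187904-34187949 (minus strand) for Mxd4. The windows of Mycn, Mxd1, Mxd3, Mxi1 and Mga held no such letters, which says nothing of sites elsewhere.
Max: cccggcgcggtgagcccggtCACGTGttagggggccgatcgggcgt
Mlx: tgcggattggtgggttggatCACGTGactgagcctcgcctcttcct
Mnt: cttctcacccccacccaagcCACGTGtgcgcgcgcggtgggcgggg
Mxd4: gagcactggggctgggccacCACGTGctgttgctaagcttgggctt

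No member of the network passed the test for a difference between DKK2-treated and control NK cells. Values are FPKM, that is fragments divided by transcript length and by a measure of library size, so levels of different genes can be set side by side. The exact form of that measure is not known here. The row mmu-mir-703 held 25.7% and 8.44% of the summed FPKM in the DKK2 libraries and 11.8% and 17.1% in the control libraries. All 10 members had a mean of at least 1 FPKM and were tested with limma on log2(FPKM + 1), with Benjamini-Hochberg adjustment over 12275 genes and a threshold of 0.05. By limma 0 of 10 members passed, and 0 had an unadjusted p under 0.05. Of all genes tested 0.0326% passed, which is 4 genes, and 1.84% had an unadjusted p under 0.05. In the fit 5 members were higher and 5 lower, with a median log2 fold change of -0.01 (DKK2 minus control), beside -0.05 over all genes tested. The groups did not overlap in 2 members, 1 in each direction, that is in 20% of the members, beside 26.5% of all genes tested.

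The libraries of a group, which shared their treatment, differed from each other in depth or in the markers of other cell types. Relative depth, read from the smallest steps of the values, was 0.351 to 0.401 in 3 libraries when control replicate 1 is set to 1. Across protein-coding genes DKK2 replicate 2 and control replicate 2 were closest (Pearson r = 0.971, taken across genes, which are no replicates), while the DKK2 libraries had r = 0.937 with each other and the controls 0.939. Of the 10 NK markers none was listed at 0, 7 were higher and 3 lower in the fit, and they summed to 11600 and 11310 FPKM in the DKK2 libraries and 17410 and 14720 FPKM in the control libraries. The lower ones were Gzmb, Prf1 and Il2rb, and without Gzmb the other 9 summed to 4703 and 5191 FPKM in the DKK2 libraries and 5868 and 4813 FPKM in the control libraries. Markers of T cells (9 of 9), B cells (8 of 8), neutrophils (10 of 10) and monocytes and macrophages (11 of 12) were lowest in control replicate 1, as were 4 of 7 dendritic cell markers. The neutrophil markers summed to 3542 and 121 FPKM in DKK2-treated cells, against 1.11 and 62.7 FPKM in control cells, and the T cell markers to 226 and 180 FPKM, against 29.1 and 130 FPKM. Without Ccr2, which alone was at 460.8 and 311.3 FPKM in the DKK2 libraries and 352.3 and 354.5 FPKM in the control libraries, the other 11 monocyte and macrophage markers summed to 718.5 and 408.2 FPKM, against 8.72 and 240.1 FPKM. With Ccr2 these sums were 1179 and 720 FPKM, against 361 and 595 FPKM, and the B cell markers came to 6.25 and 39.4 FPKM, against 0.652 and 24.3 FPKM. Of the dendritic cell markers Itgax made up most, with 26.3 and 21.6 FPKM in the DKK2 libraries and 33.97 and 10.2 FPKM in the control libraries, and the other 6 summed to 4.54 and 4.12 FPKM in the DKK2 libraries and 1.87 and 4.36 FPKM in the control libraries. Gzmb, Ccr2 and Itgax are singled out here after their values were seen. Cd8a, Cd8b1, C1qa, C1qc, Camp, Ltf, Retnlg, Cxcr2, Clec9a and Cd209a were among the markers that control replicate 1 listed at 0. Clec9a was also at 0 in DKK2 replicate 2, and Cd209a in DKK2 replicate 2 and control replicate 2. In such bulk samples fewer cells of a type and less RNA per cell cannot be told apart, and the part of these other cells in the results was not tested.

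**Figure D1:**
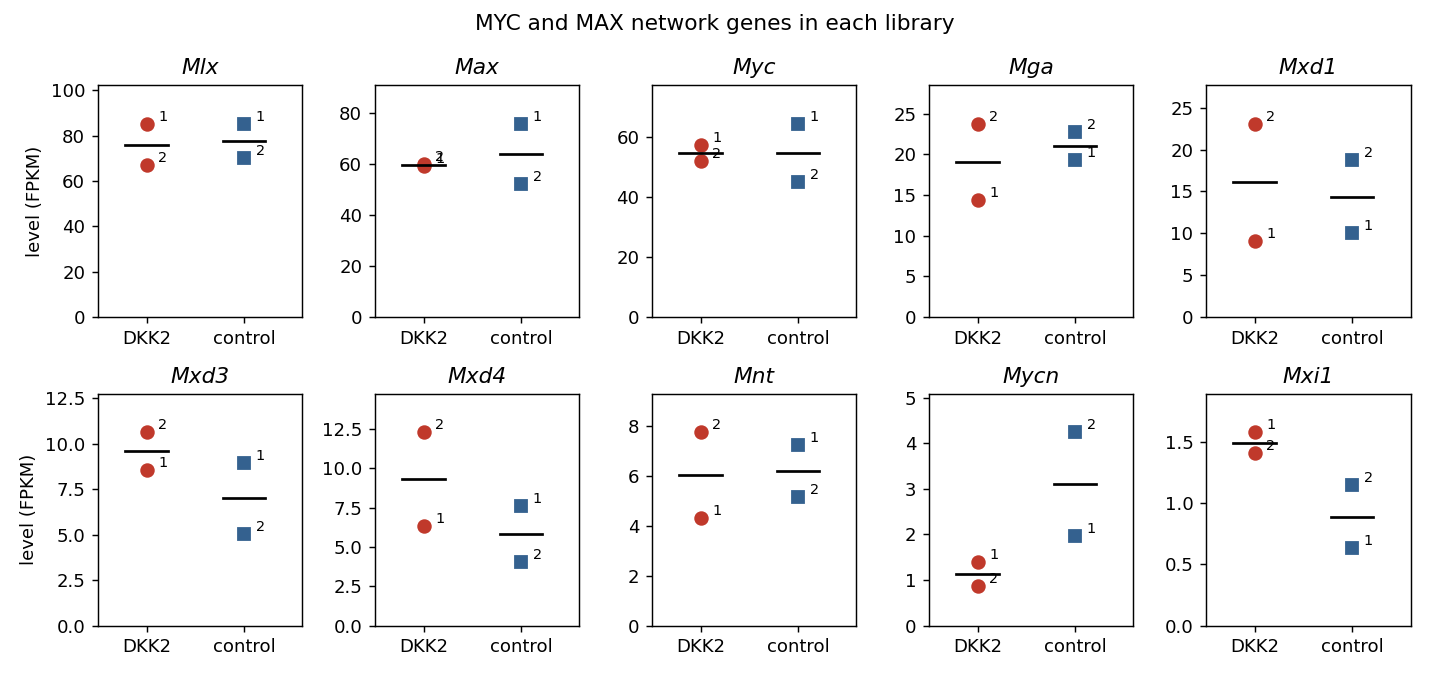
Level in FPKM of each member in each library, from the most to the least abundant, with DKK2 libraries as red circles, control libraries as blue squares, replicate numbers beside the points and group means as bars (n = 2 libraries a group). Each vertical axis starts at 0; the groups are apart in Mycn, where both DKK2 libraries lie below both controls, and in Mxi1, where both lie above.

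Myc, the activator of the family, was abundant, with group means that were nearly equal. It stood at 57.6 and 52.0 FPKM in the DKK2 libraries, against 64.6 and 45.1 FPKM in the control libraries. Both DKK2 values lay between the 2 controls, which themselves were 0.51 apart on the log2 scale. The group means were 54.8 ± 3.92 FPKM with DKK2 and 54.9 ± 13.8 FPKM in the controls (SD, n = 2 each). The log2 fold change was 0.02 ± 0.29 SE with a 95% interval of -0.72 to 0.76 (limma, adjusted p = 1). A fall or a rise within that interval is not excluded by these libraries, and the interval is not a limit of detection. The mean level of Myc was above that of 82.3% of the genes tested.

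Mycn, the MYC paralog best known from neural and progenitor cells, was the member with the largest fitted difference. It was at 1.41 and 0.866 FPKM in the DKK2 libraries, against 1.97 and 4.24 FPKM in the control libraries. Both DKK2 libraries lay below both controls, as in 14.8% of all genes tested. From the depth of the libraries and an annotated length of 2.52 to 2.67 kb, these values rest on about 79 to 84 and 49 to 52 fragments with DKK2, against about 280 to 296 and 211 to 224 in the controls. The log2 fold change was -0.90 ± 0.44 SE with a 95% interval of -2.03 to 0.23 (limma, unadjusted p = 0.096, adjusted p = 1). It was -0.49 without control replicate 2, the library with the highest value, and -1.31 without control replicate 1, both with a limma adjusted p of 1. Mycn transcripts amounted to 2.44% and 1.67% of Myc transcripts with DKK2 and to 3.05% and 9.40% in the controls.

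The shared partners Max and Mlx were the most abundant members, above Myc in every library, and neither passed the test. Max, the obligate partner of MYC, was at 58.97 and 59.99 FPKM in DKK2-treated cells, against 75.7 and 51.9 FPKM in control cells. The DKK2 libraries were nearly equal and lay between the controls (log2 fold change -0.07 ± 0.29 SE, limma adjusted p = 1). Mlx, the partner of MondoA and ChREBP, was at 84.9 and 67.0 FPKM in DKK2-treated cells, against 85.3 and 70.0 FPKM in control cells (-0.03 ± 0.27, limma adjusted p = 1). Mlx was the highest member in each of the 4 libraries and also the steadiest, with 1.27-fold between its highest and lowest library. The gene Psmc3ip overlaps Mlx on the opposite strand with 385 shared exon bases, and no source used here states whether the counting used strand, so reads of the pair may be mixed. Psmc3ip was at 18.8 and 12.6 FPKM in DKK2-treated cells, against 22.1 and 14.6 FPKM in control cells.

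The MXD repressors Mxd1, Mxd3 and Mxd4 had groups that overlapped and a wide spread between replicates. Mxd1, which in blood cells is best known from differentiating and mature cells, was at 9.07 and 23.1 FPKM in DKK2-treated cells, against 9.99 and 18.7 FPKM in control cells. The replicate 2 library was high and the replicate 1 library low in each group, and the fitted difference was 0.08 ± 0.54 SE (limma adjusted p = 1), with the widest interval of the members, -1.31 to 1.47. Mxd3, which is known for being expressed in dividing cells, was at 8.53 and 10.6 FPKM in DKK2-treated cells, against 8.95 and 5.07 FPKM in control cells (0.44 ± 0.35, limma adjusted p = 1). Mxd4 was at 6.37 and 12.3 FPKM in DKK2-treated cells, against 7.58 and 4.02 FPKM in control cells (0.59 ± 0.44, limma adjusted p = 1). Mxd3 and Mxd4 were both lowest in control replicate 2 and highest in DKK2 replicate 2, and in both genes DKK2 replicate 1 lay between the controls. Reads on opposite strands may be mixed here too, since Mxd3 overlaps Prelid1 (92.7 and 120.5 FPKM in DKK2-treated cells, against 135.0 and 111.5 FPKM in control cells) and Mxd4 overlaps the antisense transcript Gm42846.

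Mxi1, also called MXD2, was the least abundant member by mean, and the other one whose groups were apart. It was at 1.58 and 1.41 FPKM in DKK2-treated cells, against 0.629 and 1.15 FPKM in control cells. Both DKK2 libraries lay above both controls, as in 11.8% of all genes tested. The log2 fold change was 0.41 ± 0.39 SE with a 95% interval of -0.59 to 1.42 (limma adjusted p = 1), and 0.21 without control replicate 1, where Mxi1 was lowest. The markers of T cells, B cells and neutrophils given above were also lowest in control replicate 1, and the part of such cells in the Mxi1 values was not tested. A transcript annotated as Gm13735 is 90.6% identical to Mxi1 over 679 bases, and the gene Gm10197 overlaps Mxi1 on the opposite strand (6.86 and 16.9 FPKM in DKK2-treated cells, against 12.9 and 9.96 FPKM in control cells), so its low values are uncertain.

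Mnt and Mga, the larger repressors of the network, were lowest in DKK2 replicate 1 and highest in DKK2 replicate 2. Mnt, the MAX-binding repressor found in most cell types, was at 4.31 and 7.74 FPKM in DKK2-treated cells, against 7.25 and 5.15 FPKM in control cells (-0.06 ± 0.37, limma adjusted p = 1). Mga, which carries a T-box as well as the helix-loop-helix domain, was at 14.3 and 23.8 FPKM in DKK2-treated cells, against 19.3 and 22.7 FPKM in control cells (-0.17 ± 0.33, limma adjusted p = 1). In both genes the DKK2 libraries enclosed the controls.

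**Figure D2:**
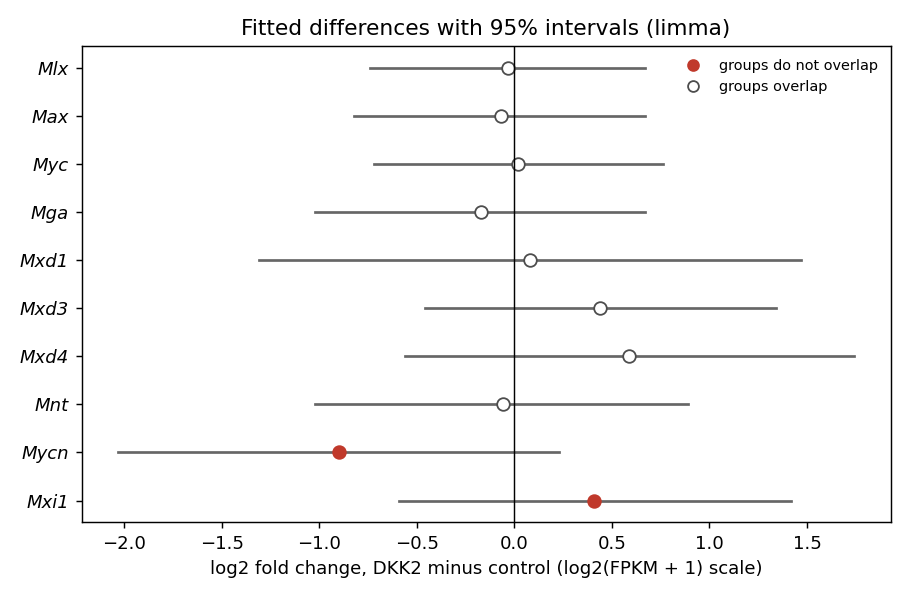
Fitted log2 fold change of each member, DKK2 minus control on the log2(FPKM + 1) scale, with the 95% interval of limma's moderated fit (2 libraries a group); filled red points mark members whose groups do not overlap. Every interval crosses 0, from -2.03 to 0.23 for Mycn to -0.56 to 1.74 for Mxd4.

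The order of the members by level was alike in all libraries. Mlx, Max, Myc, Mga and Mxd1 held the same ranks in each library, in that order from the top, and the ranks of Mxd3, Mxd4, Mnt, Mycn and Mxi1 below them varied. Mycn passed Mxd4 in control replicate 2. Of the mean levels, Mlx (76.8 FPKM), Max (61.6 FPKM) and Myc (54.8 FPKM) were neighbours whose ranges over libraries overlapped, as did those of Mga (20.1 FPKM) and Mxd1 (15.2 FPKM). Mxd3, Mxd4 and Mnt, with means of 8.30, 7.57 and 6.11 FPKM, overlapped too. The ranges of neighbours were apart between Myc and Mga, and between Mnt and Mycn (2.12 FPKM).

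Set against its MXD and MNT competitors for MAX, Myc was in excess in 3 of the 4 libraries. With Mga counted as well, Myc was in excess only in replicate 1 of each group. The transcripts of Mxd1, Mxd3, Mxd4, Mxi1 and Mnt summed to 29.9 and 55.2 FPKM with DKK2 and to 34.4 and 34.1 FPKM in the controls. Myc over this sum was 1.93 and 0.943 with DKK2 and 1.88 and 1.32 in the controls. DKK2 replicate 2 had the lowest ratio and DKK2 replicate 1 the highest, so the groups overlapped. Mxd1 had the largest share of the sum in every library, with 30.4% and 41.9% in the DKK2 libraries and 29.0% and 54.9% in the control libraries. With Mga added to the sum the ratios were 1.30 and 0.659 with DKK2 and 1.202 and 0.794 in the controls. Max was at 0.572 and 0.455 of all its listed partners together with DKK2, against 0.629 and 0.489 in the controls. These are transcript ratios, which say nothing of protein or dimer levels.

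**Figure D3:**
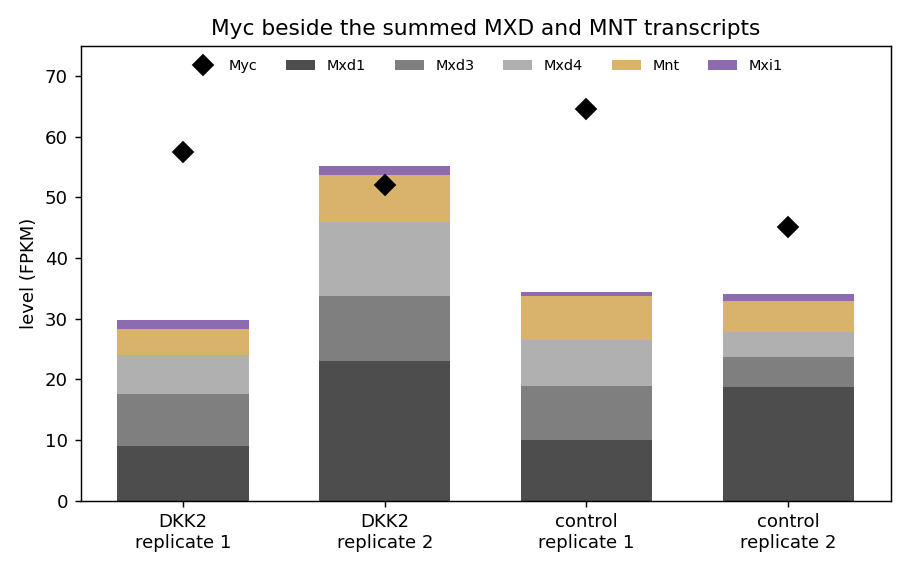
Stacked bars give the levels in FPKM of Mxd1, Mxd3, Mxd4, Mnt and Mxi1 in each library, and diamonds give Myc in the same unit, with the DKK2 libraries left of the controls. Myc lies above the stack in 3 libraries and just below it in DKK2 replicate 2, where the stack reaches 55.2 FPKM.

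Genes that MYC is known to activate were lower in the DKK2 libraries in the fit in nearly every case, while the group means of Myc were nearly equal. These lists were assembled with earlier results of the same data known, so their direction is not independent evidence. Of 32 tested MYC-activated genes of metabolism and growth, 30 were lower in the fit, with a median log2 fold change of -0.39. In 18 of the 32 the DKK2 values were both under the control values, that is 56.2%, beside 14.8% of all genes tested, and in 0 both lay above. Of 30 MYC-activated genes of ribosome biogenesis, 30 were lower in the fit (median -0.45), and in 20 the DKK2 values were both under the control values. Among all genes tested 56.4% were lower in the fit. By limma with adjustment over all genes 0 of the 32 and 0 of the 30 passed, while 3 of the metabolic genes and 1 of the ribosome genes had an unadjusted p under 0.05.

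Slc7a5, the large neutral amino acid transporter, was at 23.8 and 31.3 FPKM in DKK2-treated cells, against 61.7 and 49.2 FPKM in control cells (-0.99 ± 0.28, limma adjusted p = 1). Srm, the spermidine synthase, was at 36.7 and 42.8 FPKM in DKK2-treated cells, against 88.1 and 63.5 FPKM in control cells (-0.90 ± 0.28). In both genes the controls were clearly above both DKK2 libraries. Tfrc, the transferrin receptor that imports iron, was at 110.9 and 52.4 FPKM in DKK2-treated cells, against 159.3 and 138.4 FPKM in control cells (-0.95 ± 0.42). Of the ribosome genes, Rrp9, a component of the U3 ribonucleoprotein, was at 15.2 and 24.6 FPKM in DKK2-treated cells, against 52.5 and 27.6 FPKM in control cells (-0.94 ± 0.42). Fbl, the rRNA methylase fibrillarin, measured 2.07 and 6.72 FPKM in DKK2-treated cells, against 8.64 and 7 FPKM in control cells. Rrp12, known from yeast for the export of ribosomal subunits, measured 6.06 and 8.68 FPKM in DKK2-treated cells, against 16.0 and 10.4 FPKM in control cells. In Rrp9 and Fbl, DKK2 replicate 2 came close to control replicate 2, and none of these 6 genes passed limma (adjusted p = 1 for each).

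Library by library, the target lists and Myc did not share an order. The median deviation from the 4-library mean, on the log2(FPKM + 1) scale, was -0.20 and -0.18 in the DKK2 libraries and 0.27 and 0.12 in the controls for the metabolic genes. For the ribosome genes it was -0.15 and -0.31 with DKK2 and 0.30 and 0.13 in the controls. Myc deviated by 0.08 and -0.06 with DKK2 and by 0.25 and -0.26 in the controls, and Max by -0.05 and -0.03 with DKK2 and by 0.31 and -0.23 in the controls. Control replicate 1 was thus highest in Myc, Max and both lists, but control replicate 2 was lowest in Myc and Max while its target genes stood above those of both DKK2 libraries. Without control replicate 1 the medians were -0.35 for the metabolic list and -0.37 for the ribosome list.

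**Figure D4:**
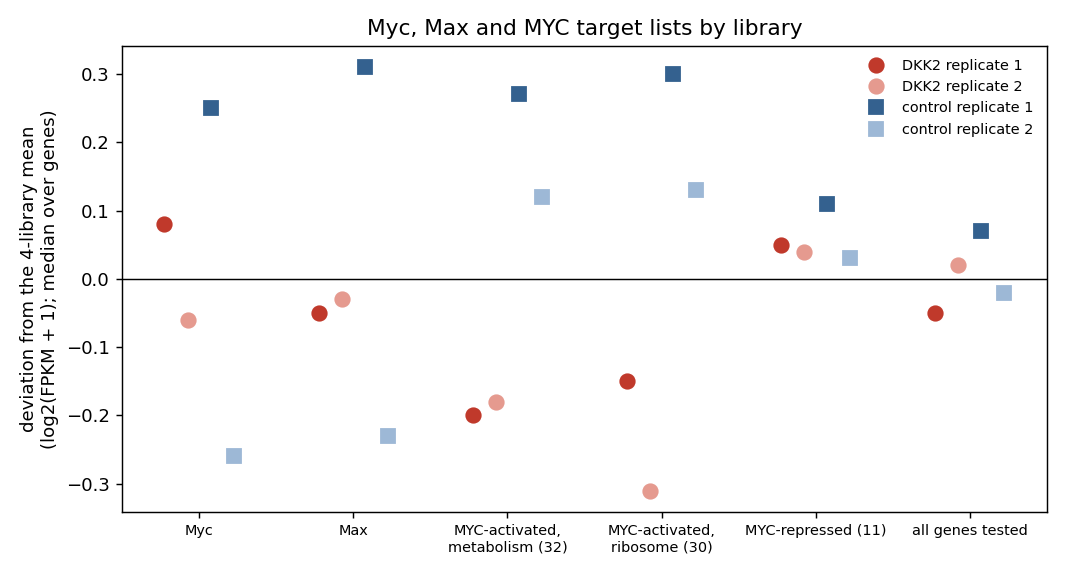
Deviation of each library from the 4-library mean on the log2(FPKM + 1) scale, for Myc, for Max and as the median over the tested genes of each list; circles are DKK2 libraries and squares are controls. Both MYC-activated lists lie below 0 in both DKK2 libraries and above 0 in both controls, while Myc and Max are lowest in control replicate 2.

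An E-box was in the promoter window of 9 of 27 MYC-activated metabolic genes and 6 of 26 ribosome genes with a window, that is 33.3% and 23.1%, beside 12.2% of the tested genes. The log2 fold changes of genes with and without the letters had medians of -0.30 and -0.39 for the metabolic list and of -0.46 and -0.40 for the ribosome list, and of -0.11 and -0.05 for all tested genes with a window. The promoter of Cdk4, the G1 cyclin-dependent kinase, held the most, with 4 matches within 177 bases at chr10:127063353-127063529 (plus strand), from position -182 to -6 counted from its start. It is shown as the target with the densest E-boxes, in capitals, and was chosen after the matches were counted. Cdk4 was at 470.2 and 441.6 FPKM in DKK2-treated cells, against 699.9 and 428.1 FPKM in control cells (-0.26 ± 0.35, limma adjusted p = 1), so both DKK2 libraries lay between the controls.
Cdk4: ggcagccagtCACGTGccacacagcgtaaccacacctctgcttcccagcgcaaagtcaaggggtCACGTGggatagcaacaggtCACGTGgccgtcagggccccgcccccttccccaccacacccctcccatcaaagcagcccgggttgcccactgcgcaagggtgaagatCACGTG

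Genes that MYC is known to repress had no common direction. Of 11 tested, 7 were higher and 4 lower in the fit (median 0.18, and 0.04 to 0.11 when any 1 of the 4 libraries was left out), and 0 passed limma or had an unadjusted p under 0.05. Cdkn1a, the cell cycle inhibitor p21, was at 30.4 and 51.3 FPKM in DKK2-treated cells, against 66.0 and 65.1 FPKM in control cells (-0.72 ± 0.33, limma adjusted p = 1), below both controls. Cebpa, a factor of myeloid cells, was at 1.66 and 2.92 FPKM in DKK2-treated cells, against 0.0203 and 1.58 FPKM in control cells, lowest in the same library as the myeloid markers.

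Targets of MLX and its partner MondoA had no common direction, and Arrdc4 had the largest fitted fold change among them. Arrdc4, an arrestin that MondoA is known to induce when glucose is abundant, was at 7.88 and 7.15 FPKM in DKK2-treated cells, against 1.71 and 4.28 FPKM in control cells. Both DKK2 libraries lay above both controls, with a log2 fold change of 1.17 ± 0.41 SE (limma, unadjusted p = 0.037, adjusted p = 1). The groups lay apart in this direction in 28.6% of the list, beside 11.8% of all genes tested. An unadjusted limma p under 0.05 was found in 1 of the 7 genes, beside 1.84% of all genes tested. Like the T cell and neutrophil markers, Arrdc4 was lowest in control replicate 1, and the part of such cells in its values was not tested. Txnip, the arrestin that restrains glucose uptake, was at 90.5 and 153.2 FPKM in DKK2-treated cells, against 85.7 and 82.5 FPKM in control cells (0.48 ± 0.34, limma adjusted p = 1), close to the controls in DKK2 replicate 1. Of the 7 genes of the list 5 were higher and 2 lower (median 0.12, and 0.40 without DKK2 replicate 1), and 0 passed limma. Fasn, the fatty acid synthase, was among the lower and was chosen after its values were seen, at 10 and 48.3 FPKM in DKK2-treated cells, against 67.3 and 34.5 FPKM in control cells. Mlxip itself was at 12.8 and 19.8 FPKM in DKK2-treated cells, against 16.2 and 15.6 FPKM in control cells, and Mlxipl was too low to be tested, with 0.0275 and 0.0137 FPKM in DKK2-treated cells and 0.00548 and 0.0156 FPKM in control cells. The Arrdc4 window held an E-box that began at position -193 from the gene start, at chr7:68749406-68749451 (minus strand), shown in capitals.
Arrdc4: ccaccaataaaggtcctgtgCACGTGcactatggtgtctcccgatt

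No gene among the partners through which the network activates or represses passed limma, and 0 had an unadjusted p under 0.05. Of 19 MYC cofactors, 16 were lower and 3 higher in the fit (median -0.16, and -0.47 without DKK2 replicate 2). Hcfc1, a chromatin cofactor that binds MYC, was at 44.2 and 54.3 FPKM in DKK2-treated cells, against 67.2 and 60.7 FPKM in control cells. Ruvbl1, a helicase of the TIP60 complex, was at 15.4 and 11.3 FPKM in DKK2-treated cells, against 17.4 and 16.5 FPKM in control cells. Both were named because their DKK2 libraries lay below the controls, as in 10.5% of the list, beside 14.8% of all genes tested. Neither passed limma (adjusted p = 1 for each). Without DKK2 replicate 1 the count of lower genes was 10 of 19 and the median 0. Of all genes tested, 56.4% were lower in the main fit.

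The corepressors of MXD and MNT were 11 lower and 6 higher of 17 (median -0.04), while 56.4% of all genes tested were lower. Without DKK2 replicate 1, 7 of the 17 were lower (median 0.03). Hdac1, the deacetylase of the SIN3 complex, was nearly flat, at 45.0 and 43.4 FPKM in DKK2-treated cells, against 45.9 and 45.4 FPKM in control cells. Ing2 and Arid4b, both subunits of SIN3 complexes, were named because both DKK2 libraries lay above both controls. That was so in 11.8% of the list and in 11.8% of all genes tested. Ing2 was at 34.5 and 23.0 FPKM in DKK2-treated cells, against 21.2 and 21.9 FPKM in control cells, and Arid4b at 13.7 and 14.1 FPKM in DKK2-treated cells, against 9.91 and 11.5 FPKM in control cells. By limma 0 of the 17 passed, and 0 had an unadjusted p under 0.05.

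Partners of MGA in its Polycomb-type complex had 13 of 14 genes lower in the fit (median -0.12), and 8 of 14 without DKK2 replicate 2 (median -0.03). Without DKK2 replicate 1 the median was -0.35. Of all genes tested, 56.4% were lower in the main fit. Yaf2, a subunit shared by such complexes, was at 13.6 and 8.52 FPKM in DKK2-treated cells, against 20.7 and 14.5 FPKM in control cells. Its homolog Rybp was at 1.79 and 2.06 FPKM in DKK2-treated cells, against 2.70 and 2.58 FPKM in control cells. Tfdp1, the dimer partner of E2F6 there, was at 35.3 and 37.1 FPKM in DKK2-treated cells, against 58.5 and 41.2 FPKM in control cells. In these 3 genes both DKK2 libraries lay below both controls, for which they were named. The same held for 4 of the 14, that is 28.6%, beside 14.8% of all genes tested. By limma 0 of 14 passed (adjusted p = 1 for each), with 0 at an unadjusted p under 0.05.

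Genes that set the stability of the MYC protein had 17 of 21 members lower in the fit (median -0.09), and 10 of 21 without DKK2 replicate 1 (median 0). With any other library left out it was between -0.24 and -0.15. Of all genes tested, 56.4% were lower in the main fit. Huwe1, a ubiquitin ligase that acts on MYC, was at 67.2 and 116.0 FPKM in DKK2-treated cells, against 141.1 and 182.1 FPKM in control cells (-0.85 ± 0.36, limma adjusted p = 1). Fbxw7, the ligase that reads the phosphorylated MYC degron, was at 12.4 and 13.9 FPKM in DKK2-treated cells, against 12.7 and 15.2 FPKM in control cells (-0.08 ± 0.25), and was chosen after its value was seen. Fbxo32, an F-box gene, was at 2.15 and 2.61 FPKM in DKK2-treated cells, against 1.56 and 1.45 FPKM in control cells. By limma 0 of 21 passed, and 0 had an unadjusted p under 0.05.

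**Figure D5:**
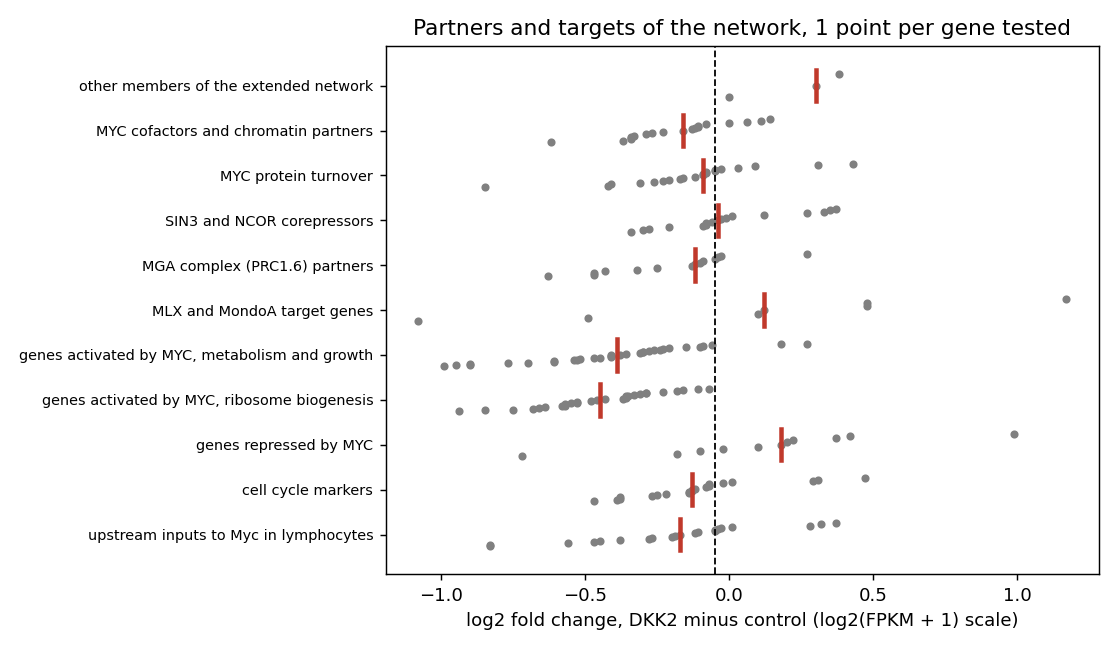
Each grey point is the log2 fold change of 1 tested gene, DKK2 minus control on the log2(FPKM + 1) scale, by list; red bars are list medians and the dashed line is the median of all genes tested (-0.05). The lists of MYC-activated genes have the lowest medians, -0.39 and -0.45.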

How the data were processed

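RNA was measured in 4 libraries, 2 from DKK2-treated and 2 from control NK cells. The authors deposited FPKM values, 1 column per library, per the file headers (the file itself is named for RPKM). TopHat2 2.1.0, Cuffdiff 2.1.0, CASAVA, edgeR and build mm9 are listed in the submitters' processing notes, without roles. The annotation, the use of strand (the library kit was stranded, per the labels' protocols) and the sharing of multiply mapped fragments are not given in the sources used here. No value columns were left aside.

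Rows that averaged 1 FPKM or more were tested in R 4.3.3 with limma 3.58.1 (trended eBayes, two-sided) on log2(FPKM + 1), a scale that understates the change of low genes. An exact permutation test of 2 libraries against 2 cannot go below p = 0.333. A count model does not suit FPKM and was not fitted; relative depth came from the most frequent ratio (within 0.5%) between values under 0.3 FPKM of genes 400 to 5000 bases long. Fragment numbers are approximate, and intervals cover the spread between these libraries only.

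Named were all members and, from each of 11 gene lists, the 3 genes with the largest fold change among those whose groups did not overlap. Fasn, Mlxip, Mlxipl, Usf1, Usf2, Fbxw7, Cdk4 and the marker and overlapping genes were added outside this rule. A gene that this rule names is not reported here. The members and lists were chosen with earlier results of these data known. Lists are described by counts and medians. Of the list genes, Mycl, Cip2a and Pkm were not matched. The test was also run on simulated data with independent noise, and no result given here rests on that run. Biotypes, lengths and overlapping genes came from the GENCODE annotation of GRCm38 by symbol, and promoter sequences from RefSeq.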

Additional observations from a re-analysis of the deposited data

How the results depend on the processing

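No member passed limma under any of the 11 alternatives (lowest adjusted p 0.60). With all 4 libraries kept, 1 of 68 member values changed sign, that of Mlx, at 0 after quantile normalization. With a library left out 10 changed sign, and the cause was not tested. The fold changes then ranged from -0.24 to 0.27 for Myc, -0.34 to 0.19 for Max, -0.55 to 0.71 for Mxd1, -0.42 to 0.30 for Mnt, -0.52 to 0.17 for Mga and -0.20 to 0.13 for Mlx. Mycn (-1.31 to -0.49), Mxd3 (0.08 to 0.80), Mxd4 (0.17 to 1.02) and Mxi1 (0.21 to 0.61) held their direction. The filter at 5 FPKM left out Mycn and Mxi1. Of all genes, 4 passed in the main test, 0 (949 at an unadjusted p under 0.05) with no filter on low values and 0 after dropping any 1 library (150 to 855). With the replicate number as a block 8 passed, 0 of them members; the numbers share nothing known, and deviations of same-numbered libraries had r = 0.01 across genes. The MYC-activated lists kept medians between -0.40 and -0.34 (metabolism) and -0.54 and -0.37 (ribosome) in every alternative. In counts chosen after seeing the data, leaving out a library left 28 to 30 of 32 and 24 to 30 of 30 lower. Over all genes tested, 6009 to 7321 of 12275 were lower in the same settings. Mxi1 and Mycn had the lowest mean levels of the members, and the part of depth in their spread was not tested.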

Other observations

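Signalling genes and factors that are known to act on Myc in lymphocytes had 17 of 21 members lower in the fit (median log2 fold change -0.17), but in 6 of 21 without DKK2 replicate 1. By limma 0 passed, and 0 had an unadjusted p under 0.05. Il2rg, the common gamma chain that IL-15 signals through, was at 723.8 and 743.0 FPKM in DKK2-treated cells, against 555.1 and 622.0 FPKM in control cells. Lef1, a Wnt effector, was at 22.9 and 24.2 FPKM in DKK2-treated cells, against 16.6 and 22.1 FPKM in control cells. Ctcf, an insulator protein that binds near Myc, was at 60.4 and 66.2 FPKM in DKK2-treated cells, against 78.2 and 67.6 FPKM in control cells. These 3 genes were named because their groups did not overlap, as in 14.3% of the list, beside 26.5% of all genes tested. Of all genes tested, 56.4% were lower in the main fit.

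Cell cycle genes, many of which follow MYC activity, had 17 of 21 members lower in the fit (median -0.13), and 10 of 21 without DKK2 replicate 2 (median 0), with a median of -0.25 without DKK2 replicate 1. Of all genes tested, 56.4% were lower in the main fit. Mcm5 and Mcm2, subunits of the replicative helicase, and Ccne1, cyclin E1, had both DKK2 libraries below both controls. So had 33.3% of the list, beside 14.8% of all genes tested. Mcm5 was at 123.6 and 167.5 FPKM in DKK2-treated cells, against 231.0 and 172.2 FPKM in control cells, Mcm2 at 66.9 and 72.8 FPKM in DKK2-treated cells, against 111.4 and 74.1 FPKM in control cells, and Ccne1 at 31.7 and 29.7 FPKM in DKK2-treated cells, against 49.8 and 33.1 FPKM in control cells. By limma 0 of 21 passed, with 0 at an unadjusted p under 0.05. Usf1 and Usf2, E-box binding factors outside the MAX network, were both lowest in control replicate 2 and highest in DKK2 replicate 2. Usf1 measured 16.6 and 27.1 FPKM in DKK2-treated cells, against 23.7 and 10.8 FPKM in control cells, and Usf2 measured 33.4 and 44.4 FPKM, against 33.9 and 28.4 FPKM.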
